A study of Mus musculus with 6 samples.

Results

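Galectins are lectins that bind beta-galactoside sugars on glycoproteins. Their genes were followed in RNA sequencing of sorted CD8 T cells, chosen by symbol as Lgals1, Lgals3, Lgals4, Lgals8 and Lgals9, with Lgals3bp, which encodes a secreted glycoprotein that binds galectin-3. All 6 symbols were among the 23284 genes of the count tables, and all 6 passed the filter on low counts that left 12951 genes for testing. The cells came from lymph nodes of C3H/HeJ mice, a strain used as a model of alopecia areata, and the series description names 3 separate mice. Both populations were sorted as CD3+CD8+CD44+CXCR3+ cells, where CD44 and CXCR3 are surface proteins common on T cells that have met antigen. They were then parted into NKG2D+ cells (3 libraries) and NKG2D- cells (3 libraries), NKG2D being an activating receptor encoded by Klrk1. The sources used here do not state the age, treatment or disease state of the mice.

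Galectins are made in the cytosol without a signal peptide and reach the cell surface by an unconventional route, where they cross-link branched and lactosamine-bearing glycans. They are grouped by build: galectin-1 is a prototype galectin with a single sugar-binding domain, galectin-3 is a chimera of that domain and a proline- and glycine-rich tail, and galectins 4, 8 and 9 carry a tandem pair of domains. In T cells, galectin-1 and galectin-3 are known to appear with activation and to modulate receptor signalling and cell death, and galectin-9 is known as a ligand of the inhibitory receptor TIM-3.

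Gene counts per library ran from 63232698 to 89184611 in NKG2D+ and from 41168816 to 67315805 in NKG2D- cells. The counts of the sort marker followed the labels: Klrk1 averaged 354 ± 49.7 counts per 1000000 (CPM) over the NKG2D+ libraries and 35.9 ± 1.35 CPM over the NKG2D- libraries (SD, n = 3 each). Summed CPM of 6 T-cell markers (Cd3d, Cd3e, Cd3g, Cd8a, Cd8b1 and Cd2) ran from 3340 to 5099 in NKG2D+ and from 3472 to 3746 in NKG2D- libraries. At an adjusted p under 0.05 by edgeR's quasi-likelihood test, 2.02% of the 12951 genes differed between the populations, 1.65% higher and 0.363% lower in NKG2D+ cells. With the replicate number as a block that share was 0.525%.

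A single galectin gene passed this test. Lgals3 was 26.3-fold higher in NKG2D+ cells and ranked 22 among the 12951 log2 fold changes, counted from the highest. Lgals1 was 2.26-fold higher and did not pass, and the libraries of the populations overlapped for Lgals8 and Lgals9. In all, 1 of the 6 genes was called higher and 0 lower by edgeR. DESeq2 called 4 of the 6 higher, where it called 7.69% of all genes higher and 3.37% lower, and limma-voom 0, where it called 0.463% higher. Of the 6, 4 genes (Lgals1, Lgals3, Lgals3bp and Lgals4) had their lowest NKG2D+ library above their highest NKG2D- library, which held for 15.1% of all genes tested. In these bulk libraries, more cells that express a gene and more RNA per cell cannot be told apart.

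**Figure D1:**
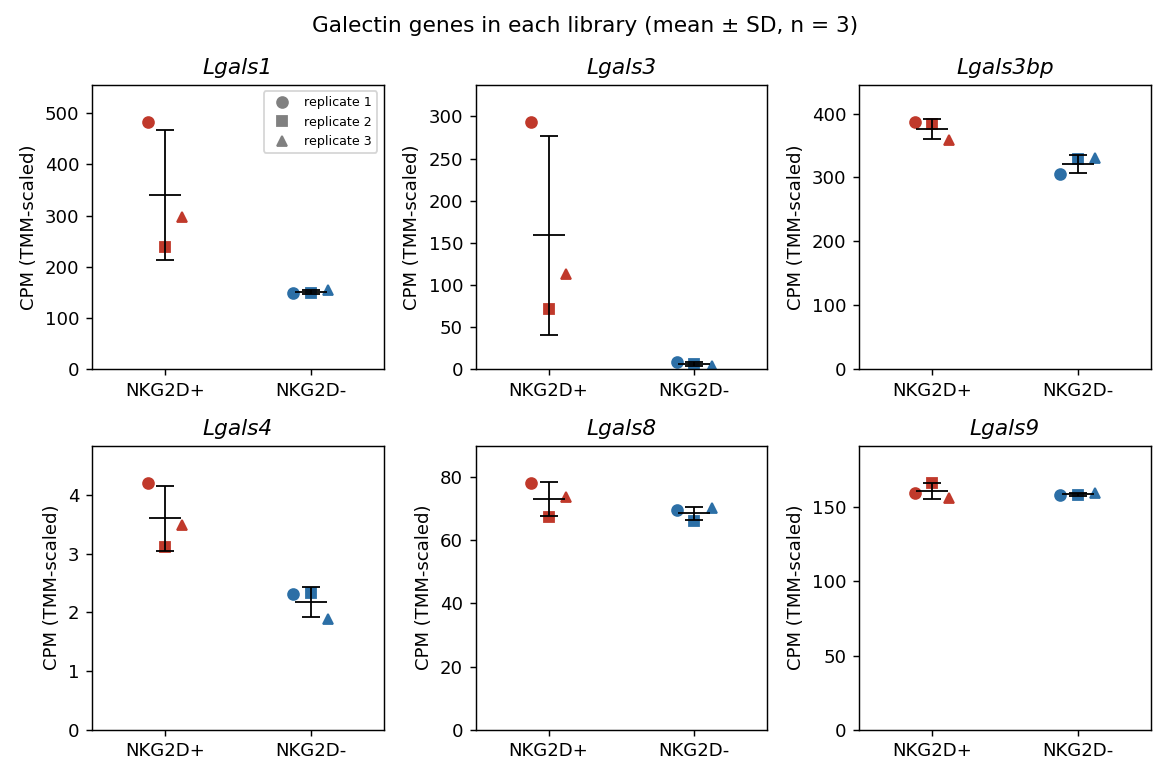
CPM on TMM-scaled library sizes (y axis, from 0, its own scale in each panel) of the 6 genes in each NKG2D+ library (left, red) and NKG2D- library (right, blue), with marker shape for the replicate number and black bars for mean ± SD of 3 libraries. Lgals3 lies between 70.8 and 293 CPM in NKG2D+ libraries and between 3.95 and 8.06 CPM in NKG2D- libraries, while the points of Lgals8 and of Lgals9 overlap.

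The RefSeq promoter table (build GRCm38.p6, a C57BL/6J genome) matched 5 of the 6 genes, all but Lgals1. The 250 bases before the start site are shown for Lgals3, the galectin gene with the largest difference (chr14:47373610-47373859, + strand), and for Lgals9, the galectin gene with the smallest (chr11:78984925-78985174, - strand), so that their base composition can be set side by side. Capitals mark matches to any of 5 motifs searched on both strands, an Sp1 box (GGGCGG), an AP-1 site (TGANTCA), a T-box core (AGGTGTGA), a STAT site (TTCNNNGAA) and a TATA box (TATAAA).
Lgals3: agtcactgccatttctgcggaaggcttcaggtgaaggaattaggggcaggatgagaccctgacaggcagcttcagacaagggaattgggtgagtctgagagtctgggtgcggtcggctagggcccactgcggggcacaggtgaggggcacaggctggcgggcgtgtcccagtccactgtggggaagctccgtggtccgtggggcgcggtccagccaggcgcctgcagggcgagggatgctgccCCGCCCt
Lgals9: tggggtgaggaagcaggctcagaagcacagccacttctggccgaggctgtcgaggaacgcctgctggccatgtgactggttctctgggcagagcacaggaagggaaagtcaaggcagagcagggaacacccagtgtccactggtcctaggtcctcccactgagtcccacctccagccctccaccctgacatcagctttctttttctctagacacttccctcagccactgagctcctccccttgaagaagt
The Lgals3 window held a single match, an Sp1 box on the minus strand at positions -7 to -2 from the start site, overlapping no other motif. An Sp1 box was present in 32.7% of 32851 promoter windows of the same length, an AP-1 site in 6.75%, a T-box core in 1.12%, a STAT site in 7.02% and a TATA box in 12.4%. The windows of Lgals9, Lgals3bp, Lgals4 and Lgals8 held none of these letters. The G+C content was 66.0% with 13 CG dinucleotides for Lgals3, and 58.4% with 3 for Lgals9, against a median of 52.4% (quartiles 45.2% and 61.2%) and 6 over all windows. C3H/HeJ may differ from this reference in sequence, and a match is a description of letters only.

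Lgals3 encodes galectin-3, also known as Mac-2, an abundant product of macrophages that also appears in activated T cells. Its RNA was counted 19294, 6334 and 8678 times in NKG2D+ libraries 1, 2 and 3, and 320, 373 and 253 times in NKG2D- libraries 1, 2 and 3. Scaled to depth, it stood at 293, 70.8 and 112 CPM in NKG2D+ libraries, against 8.06, 6.31 and 3.95 CPM in NKG2D- libraries. The lowest NKG2D+ library was above the highest NKG2D- library, and NKG2D+ library 1 stood apart from the other NKG2D+ libraries, 4.15 times the lowest of them. NKG2D+ libraries averaged 159 ± 118 CPM and NKG2D- libraries 6.10 ± 2.07 CPM (SD, n = 3 each). The log2 fold change was 4.71 (SE 0.62), and edgeR's quasi-likelihood test gave an adjusted p of 0.0248 with Benjamini-Hochberg adjustment over all genes.

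Within same-numbered libraries, treated as pairs from a shared mouse, Lgals3 was 36.4, 11.2 and 28.5 times higher in the NKG2D+ library of replicates 1, 2 and 3. Its NKG2D- level was 3.84% of the NKG2D+ level, and that of Klrk1 was 10.1%. The log2 fold change stayed between 3.93 and 5.11 under all 16 alternatives, the lowest without NKG2D+ library 1 (adjusted p = 0.0125). The call depended on the test and on single libraries. The adjusted p was 0.0683 by limma-voom, 0.074 without the filter on low counts, 0.081 without NKG2D+ library 3, 0.139, 0.126 and 0.154 without NKG2D- libraries 1, 2 and 3, and 0.457 without both libraries of replicate 3. Calls over all genes fell in most of these settings too. They numbered 261 on all libraries, 83 by limma-voom and 234 without the filter. Without NKG2D+ library 3 they numbered 15, and without NKG2D- libraries 1, 2 and 3 they numbered 21, 13 and 8. Without both libraries of replicate 3 there were 0.

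**Figure D2:**
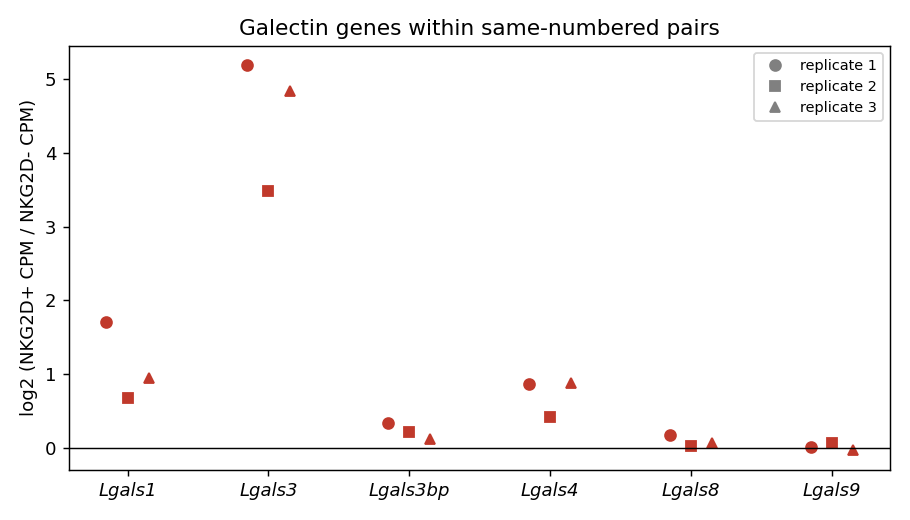
Log2 ratio of NKG2D+ to NKG2D- CPM (y axis) within each same-numbered pair of libraries (marker shape) for the 6 genes (x axis), with a line at no difference. The 3 pairs of Lgals3 lie at 3.49 to 5.19 and those of Lgals1 at 0.67 to 1.71, while those of Lgals9 lie on both sides of 0.

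Lgals1 encodes galectin-1, which can trigger death of activated T cells when bound to their surface glycoproteins. It stood at 483, 238 and 298 CPM in libraries 1, 2 and 3 of NKG2D+ cells, against 148, 149 and 155 CPM in those of NKG2D- cells. All NKG2D+ libraries were above all NKG2D- libraries, and NKG2D+ library 1 was again the highest. The spread differed between populations, with a coefficient of variation of 37.6% in NKG2D+ and 2.34% in NKG2D- cells. The log2 fold change was 1.17 (SE 0.24) and the adjusted p 0.0682 by edgeR, so Lgals1 did not pass the threshold on all libraries. It passed without NKG2D+ library 1 (log2 fold change 0.83, adjusted p = 0.0066), without NKG2D+ library 2 (1.38, adjusted p = 0.011), without both libraries of replicate 1 (0.82, adjusted p = 0.0334) or of replicate 2 (1.38, adjusted p = 0.0477), and by DESeq2 (1.18, adjusted p = 3.33e-05). Of all genes, edgeR called 543 and 1312 without NKG2D+ library 1 or 2, against 261 on all libraries. It called 229 and 354 without replicate 1 or 2, and DESeq2 called 1433. Within pairs the NKG2D+ library held 3.27, 1.59 and 1.93 times as much Lgals1 RNA.

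The rank of the libraries was the same for these 2 genes in NKG2D+ cells, but their ratio was not constant. Counts of Lgals3 per count of Lgals1 were 0.608, 0.297 and 0.377 in NKG2D+ libraries, against 0.0545, 0.0422 and 0.0255 in NKG2D- libraries. This ratio was higher in each NKG2D+ library (two-sided exact permutation p = 0.1, the lowest that 3 against 3 allows, and 0.15 adjusted over 3 ratios compared). With the libraries kept in pairs the exact paired permutation p was 0.25, the lowest that 3 pairs allow, so neither test could pass 0.05. The ratio of Lgals8 to Lgals9 was 0.456 ± 0.0454 in NKG2D+ and 0.432 ± 0.0129 in NKG2D- cells (SD, n = 3 each, exact permutation p = 0.5, adjusted p = 0.5). The ratio of Lgals3bp to Lgals9 was 2.34 ± 0.0717 in NKG2D+ and 2.02 ± 0.0844 in NKG2D- cells (exact permutation p = 0.1, adjusted p = 0.15, exact paired p = 0.25).

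None of the 3 tandem-repeat galectin genes passed by edgeR, and the unadjusted p was under 0.05 for Lgals4 alone. Lgals9 encodes galectin-9 and stood at 160, 167 and 156 CPM in libraries 1, 2 and 3 of NKG2D+ cells, against 158, 158 and 160 CPM in those of NKG2D- cells. The populations overlapped, with a log2 fold change of 0.02 (SE 0.06, adjusted p = 0.889 by edgeR), and its sign turned without NKG2D+ library 2 (-0.0066). Of the 6 genes, Lgals9 had the narrowest spread in both populations, with a coefficient of variation of 3.31% in NKG2D+ and 0.459% in NKG2D- cells.

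Lgals8 encodes galectin-8, a cytosolic sensor that binds glycans exposed on damaged vesicles and recruits autophagy receptors. It stood at 78.3, 67.3 and 73.8 CPM in NKG2D+ libraries, against 69.5, 66.1 and 70.1 CPM in NKG2D- libraries. NKG2D+ library 2 lay below 2 of the 3 NKG2D- libraries, and the log2 fold change was 0.09 (SE 0.08, adjusted p = 0.545). Heatr1 lies on the opposite strand and overlaps Lgals8 in the GENCODE M21 annotation, so without a known strand setting the reads of the 2 genes may not be fully separated.

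Lgals4 encodes galectin-4, best known from gut epithelium, and was the least abundant of the 6. It was counted 277, 279 and 269 times in NKG2D+ libraries, against 92, 138 and 121 times in NKG2D- libraries. This came to 4.21, 3.12 and 3.48 CPM in the NKG2D+ libraries, against 2.32, 2.33 and 1.89 CPM in the NKG2D- libraries, with no overlap. The log2 fold change was 0.73 (SE 0.20) and did not pass by edgeR (adjusted p = 0.109), while DESeq2 called it (adjusted p = 0.0198). Lgals6 is a near copy of Lgals4 and reads that fit both would have been set aside, so the level of Lgals4 is uncertain.

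Lgals3bp stood at 387, 384 and 358 CPM in libraries 1, 2 and 3 of NKG2D+ cells, against 305, 330 and 330 CPM in those of NKG2D- cells. It had the highest CPM of the 6 genes averaged over both populations. The lowest NKG2D+ library was above the highest NKG2D- library, by a narrow margin. The log2 fold change was 0.23 (SE 0.07) and did not pass by edgeR (adjusted p = 0.132), while DESeq2 gave an adjusted p of 0.0336. Within pairs the NKG2D+ library held 1.27, 1.16 and 1.09 times as much.

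Levels of different genes were compared per kilobase of the longest principal transcript in GENCODE M21, which ran from 800 bases for Lgals1 to 2843 for Lgals8. In NKG2D+ cells the order was Lgals1 at 425 ± 160 CPM per kb, Lgals3bp at 162 ± 6.75, Lgals3 at 112 ± 83.4, Lgals9 at 101 ± 3.35, Lgals8 at 25.7 ± 1.94 and Lgals4 at 2.60 ± 0.403 (SD, n = 3 each). In NKG2D- cells it was Lgals1 at 188 ± 4.40 CPM per kb, Lgals3bp at 138 ± 6.16, Lgals9 at 100.1 ± 0.459, Lgals8 at 24.1 ± 0.758, Lgals3 at 4.30 ± 1.46 and Lgals4 at 1.57 ± 0.183. Lgals3 was thus in place 3 in NKG2D+ and place 5 in NKG2D- cells. Its libraries overlapped those of Lgals3bp and of Lgals9 in NKG2D+ cells, whereas no neighbours in the order overlapped in NKG2D- cells. Of the summed per-kb level of the 5 galectins proper, Lgals3 made up 15.4% ± 5.95 in NKG2D+ and 1.35% ± 0.469 in NKG2D- cells (SD, n = 3 each). Lgals1 made up 63.6% ± 1.19 in NKG2D+ and 59.1% ± 0.734 in NKG2D- cells, and Lgals9 16.6% ± 5.65 in NKG2D+ and 31.4% ± 0.23 in NKG2D- cells. These shares sum to a whole, so a larger share of one gene lowers the others.

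**Figure D3:**
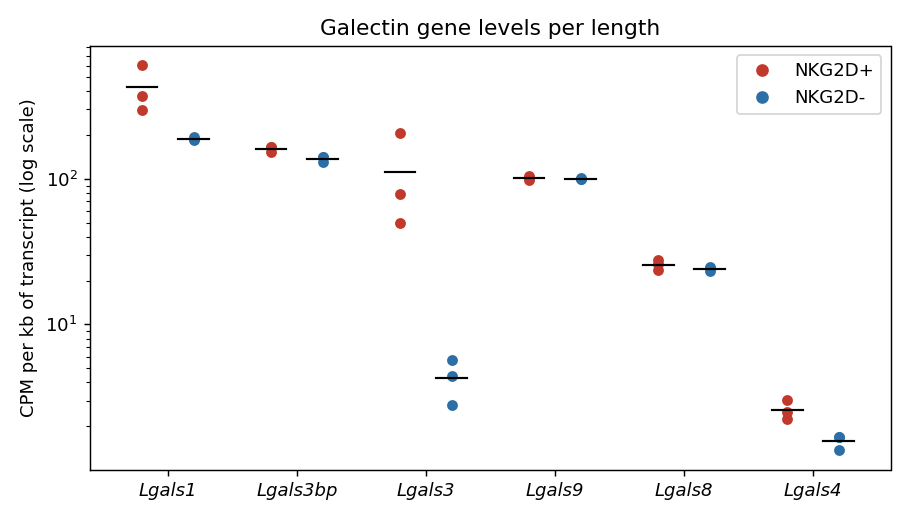
CPM per kb of transcript (y axis, log scale) of the 6 genes, ordered by their NKG2D+ mean, with a point per library and a bar at the mean of 3 libraries. In each gene NKG2D+ (red) is left of NKG2D- (blue), and Lgals3 is at 112 against 4.30 CPM per kb.

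The other galectin genes were low or did not differ. The galectin-related gene Lgalsl is listed under its older symbol 1110067D22Rik and averaged 43.9 ± 3.0 CPM over NKG2D+ libraries and 49.9 ± 4.4 CPM over NKG2D- libraries (log2 fold change -0.19, SE 0.09, adjusted p = 0.304 by edgeR). Lgals12 had 3, 7 and 3 counts in the NKG2D+ libraries and 4, 4 and 0 counts in the NKG2D- libraries, and Lgals7 had 0, 2 and 3 counts in the NKG2D+ libraries and 2, 1 and 1 in the NKG2D- libraries. Lgals6 had at most 1 count in any library. Lgals2 had 0 counts in all 6 libraries, which at 3 counts allows up to 0.0335 to 0.0456 CPM in NKG2D+ and 0.0468 to 0.0756 CPM in NKG2D- libraries. Such limits cover counting error only. Grifin had 1, 18 and 23 counts in the NKG2D+ libraries and 0, 18 and 17 in the NKG2D- libraries (log2 fold change -0.20, SE 1.00, adjusted p = 0.9325 by edgeR). Of this list, 2 genes were tested (1110067D22Rik and Grifin), and 0 passed by edgeR, DESeq2 or limma-voom, with 0 at an unadjusted p under 0.05.

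Genes of glycoproteins and sensors that bind galectins were compared next. Of 20 tested, 1 was called higher (Havcr2) and 1 lower (Tnfrsf25), beside 1.65% and 0.363% of all genes. By DESeq2 7 were called higher and 1 lower, where it called 7.69% and 3.37% of all genes. The median log2 fold change of these genes was 0.22, against -0.01 over all genes tested. Havcr2 encodes TIM-3, a receptor for galectin-9, and stood at 43.5, 9.64 and 37.0 CPM in NKG2D+ libraries, against 1.81, 0.795 and 1.62 CPM in NKG2D- libraries. The populations did not overlap, with a log2 fold change of 4.43 (SE 0.64, adjusted p = 0.0311 by edgeR). Without the filter its adjusted p was 0.08, by limma-voom 0.142, and without single libraries 0.0735 (NKG2D+ 1), 0.108 (NKG2D+ 3), 0.157, 0.132 and 0.185 (NKG2D- 1, 2 and 3). It was 0.146 and 0.554 without both libraries of replicates 1 and 3. Of all genes, edgeR called 543 without NKG2D+ library 1 and 229 without replicate 1, against 261 on all libraries. It called 0 to 21 without NKG2D+ library 3, any NKG2D- library or replicate 3. The ligand gene Lgals9 had overlapping libraries, and the difference between its fold change and that of Havcr2 was not tested.

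Tnfrsf25 encodes DR3, a receptor of the TNF receptor superfamily. It stood at 11.1, 16.3 and 14.0 CPM in NKG2D+ libraries, against 30.3, 29.3 and 27.6 CPM in NKG2D- libraries. All NKG2D+ libraries were lower, with a log2 fold change of -1.07 (SE 0.15, adjusted p = 0.0248 by edgeR). The adjusted p was 0.0677 with the replicate block. It was 0.108 without NKG2D+ library 3, 0.146, 0.117 and 0.142 without NKG2D- libraries 1, 2 and 3, and 0.543 without both libraries of replicate 3. With those libraries left out, 0 to 21 of all genes were called, against 261 on all libraries. Lag3, Ptprc, Alcam, Pdcd1 and Cd44 were named after their values were seen. Of the 20 tested genes of this list, 14 had a positive log2 fold change. It was 2.61 for Alcam and 2.58 for Pdcd1 (adjusted p = 0.0532 and 0.0577 by edgeR). For Cd44, whose protein was used in the sort of both populations, it was 1.03 (adjusted p = 0.13 by edgeR). Lag3, which encodes an inhibitory receptor that binds galectin-3, stood at 31.0, 13.3 and 22.8 CPM in NKG2D+ and 10.7, 5.80 and 5.40 CPM in NKG2D- libraries (log2 fold change 1.63, adjusted p = 0.0843). Ptprc, which encodes CD45, a main glycoprotein target of galectin-1, averaged 2942 ± 264 CPM over NKG2D+ libraries and 3148 ± 116 CPM over NKG2D- libraries (log2 fold change -0.10, adjusted p = 0.633).

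Enzymes and transporters that build or cap galectin ligands formed another list. They make N-glycan branches, lactosamine chains, core O-glycans and sialic acid caps, and move sugar nucleotides into the Golgi. Of 23 tested, 0 passed by edgeR, beside 2.02% of all genes, and 5 had an unadjusted p under 0.05 (21.1% of all genes tested did). DESeq2 called 4 higher and 0 lower, beside 7.69% and 3.37% of all genes, and limma-voom 0 higher, beside 0.463%. The median log2 fold change was 0.09. The gene with the smallest p was St3gal6, a sialyltransferase gene, with 118 ± 12.6 CPM over NKG2D+ libraries and 85.2 ± 3.41 CPM over NKG2D- libraries (log2 fold change 0.47, SE 0.09, adjusted p = 0.0538). Its adjusted p was 0.0384 with library totals only, 0.0443 without the filter and 0.0235 without NKG2D+ library 1 or 2. Of all genes, edgeR called 321 with library totals only, 234 without the filter, and 543 and 1312 without NKG2D+ library 1 or 2. The 7 branching genes had a median log2 fold change of 0.09 with 5 of 7 above 0, and the 4 lactosamine chain genes one of 0.11 with 3 of 4 above 0. For 6 sialic acid cap genes the median was 0.18, with 4 above 0. For 3 core O-glycan genes it was -0.03 and for 3 sugar transport genes -0.02, each with 1 above 0. Of all 12951 genes tested, 6112 were above 0. The largest log2 fold changes of the list were those of Gcnt1 (2.45, adjusted p = 0.104 by edgeR) and St3gal2 (1.95, adjusted p = 0.0841). Both were named after their values were seen.

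**Figure D4:**
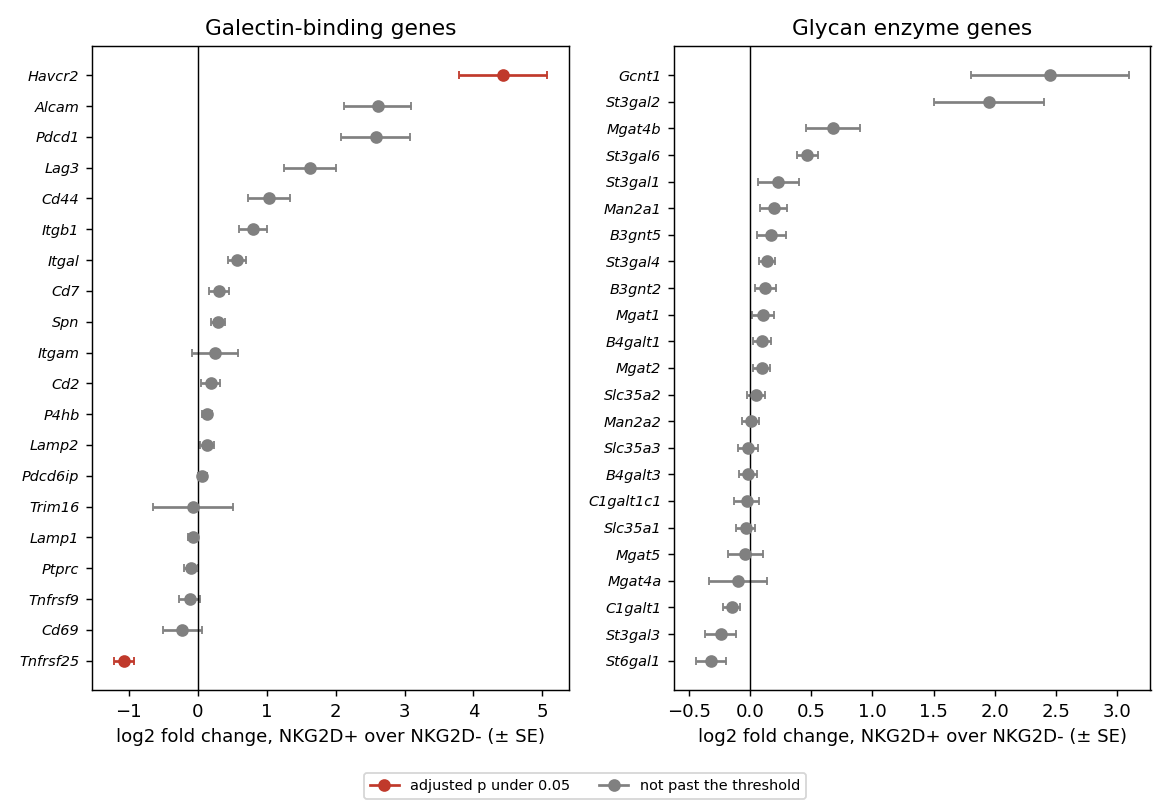
Log2 fold change of NKG2D+ over NKG2D- (x axis, bars ± SE) for 20 tested galectin-binding genes (left) and 23 tested glycan enzyme and transporter genes (right), with red for an adjusted p under 0.05 by edgeR and grey for the rest. Havcr2 at 4.43 and Tnfrsf25 at -1.07 are red on the left, and no gene is red on the right.

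The genes whose profile over the 6 libraries was nearest to that of Lgals3, by root-mean-square distance of mean-centred log2 CPM among 9461 genes compared, were Sema6d (0.356), Cd244 (0.42) and Itga1 (0.432). Sema6d encodes a semaphorin, Cd244 the receptor 2B4 and Itga1 the collagen-binding integrin chain CD49a. Their log2 fold changes were 4.76, 5.01 and 4.32, with 201, 41.4 and 298 CPM in NKG2D+ library 1, the highest library for each. Their edgeR adjusted p-values were 0.0391, 0.0404 and 0.0153 on all libraries, with ranges over the alternatives that ended at 0.554, 0.554 and 0.386 without both libraries of replicate 3. In that setting 0 of all genes were called. With the replicate block the adjusted p-values were 0.0557 for Sema6d, 0.0158 for Cd244 and 0.0537 for Itga1. Nearest to Lgals3bp were Wwp2 (0.0266), Kctd7 (0.0283) and Txnrd1 (0.0338), with log2 fold changes of 0.23, 0.18 and 0.16, none of which passed. These distances describe 6 libraries that share mice and populations. All these genes were chosen by nearness of profile over the same libraries. Their fold changes, p-values and highest library thus follow largely from that choice and are no separate result.

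Levels of markers of other cells were taken beside those of Lgals3 and Lgals1. Summed CPM of 9 myeloid markers was 18.4, 8.71 and 13.1 in NKG2D+ libraries 1, 2 and 3, against a range of 7.51 to 8.05 in NKG2D- libraries. Of these, 5 were under 1 CPM in every library (Itgam, Cd14, Emr1, Fcgr1 and Clec4d) and 0 were at 0 in all. The most abundant was Lyz2, with 7.27 ± 3.92 CPM in NKG2D+ and 3.34 ± 0.276 CPM in NKG2D- libraries. For 8 dendritic cell markers the sum was 20.1, 10.6 and 17.0 CPM in the NKG2D+ libraries, against 6.55, 7.18 and 7.63 CPM in the NKG2D- libraries, with Clec9a, Cd209a and Clec10a under 1 CPM throughout. This list was split: 3 of 7 tested genes had a positive log2 fold change, and most of the sum in NKG2D+ libraries lay in Xcr1 (9.29 ± 5.21 CPM in NKG2D+ and 2.24 ± 0.386 CPM in NKG2D- libraries) and Itgax (3.66 ± 0.761 CPM in NKG2D+ and 0.914 ± 0.537 CPM in NKG2D- libraries). Clec9a and Siglech had log2 fold changes of -1.55 and -1.21. For 8 B-cell markers it was 433, 180 and 216 CPM in the NKG2D+ libraries, against 49.7, 160 and 117 CPM in the NKG2D- libraries. For 4 plasma cell markers it ran from 38.2 to 78.8 in NKG2D+ and from 33.6 to 38.2 in NKG2D- libraries. Most of that sum was Xbp1 (54.79 ± 20.45 CPM in NKG2D+ and 33.92 ± 3.04 CPM in NKG2D- libraries). Igj averaged 1.655 CPM in NKG2D+ and 1.525 CPM in NKG2D- libraries, and Sdc1 and Tnfrsf17 were under 1 CPM throughout. Lyz2, Xbp1 and Igj were named after their values were seen. The log2 fold change was positive for 8 of 8 B-cell, 6 of 6 myeloid and 3 of 3 plasma cell markers tested. Of all 12951 genes tested it was positive for 6112.

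In the sum of each of these 4 lists NKG2D+ library 1 was the highest of all, as it was for Lgals3 and Lgals1. The summed T-cell markers were also highest in that library, at 5099 CPM. Among the NKG2D- libraries Lgals3 was highest in library 1, where the B-cell, myeloid and dendritic sums were lowest and the plasma cell sum was highest. Without NKG2D+ library 1 Lgals3 stood at a log2 fold change of 3.93 and Lgals1 at 0.83. By edgeR 0 genes of these 4 lists passed. At an unadjusted p under 0.05 by edgeR lay 21.1% of all genes, counted in either direction. Of the markers tested, 7 of 8 B-cell, 2 of 6 myeloid and 1 of 3 plasma cell markers were higher at that threshold. Of 7 dendritic markers 3 were higher and 2 lower. DESeq2 called 2 B-cell, 1 myeloid, 2 dendritic and 1 plasma cell marker in either direction, where it called 7.69% of all genes higher and 3.37% lower. By limma-voom 0 of them were called. The sum of 8 stromal and epithelial markers was lower in NKG2D+ cells, at 54.6 to 59.9 CPM against 70.0 to 72.4 CPM in NKG2D- cells, most of it Pecam1 (log2 fold change -0.47, adjusted p = 0.024 by edgeR, 0.0537 with the replicate block), which T cells also express. Of the 4 tested genes of that list the other 3 had positive log2 fold changes, and Col1a1, a collagen gene, averaged 2.47 ± 0.282 CPM over NKG2D+ libraries and 0.921 ± 0.128 CPM over NKG2D- libraries (log2 fold change 1.42, SE 0.22, adjusted p = 0.0339 by edgeR, 0.0806 with the replicate block). Pecam1 and Col1a1 were named after their values were seen, and neither passed by edgeR without NKG2D+ library 3 or without any 1 of the NKG2D- libraries (adjusted p of 0.109 to 0.2). Those settings called 8 to 21 of all genes, against 261 on all libraries. The part of other cells in the galectin differences was not tested.

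**Figure D5:**
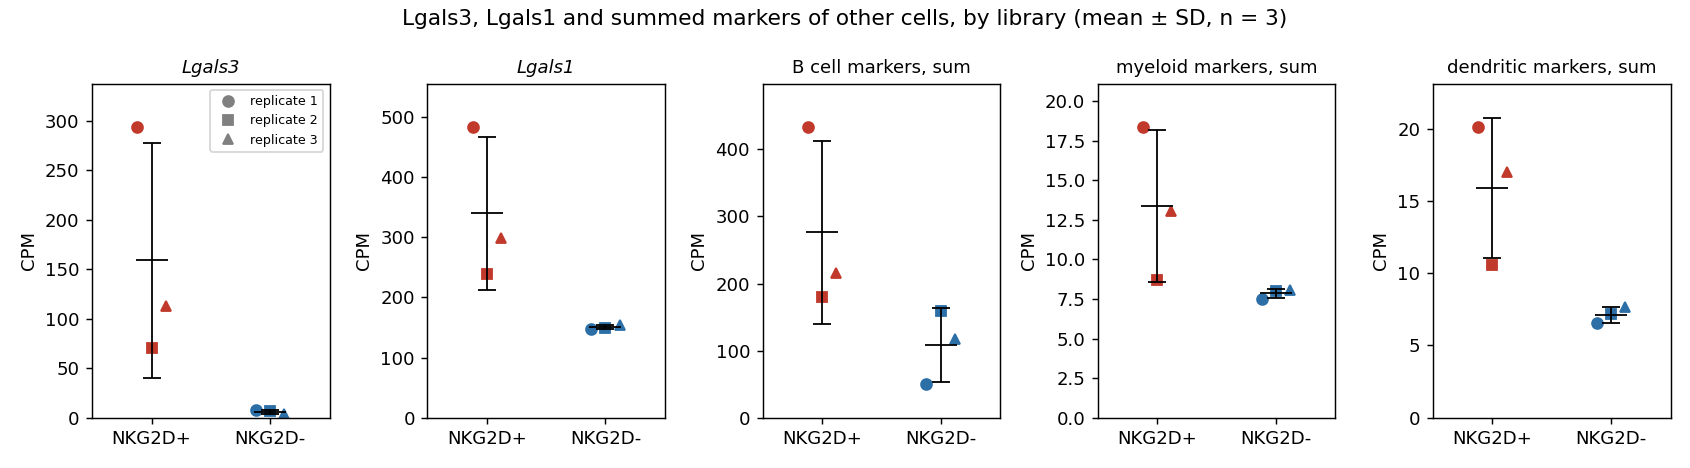
CPM (y axis, from 0, its own scale in each panel) of Lgals3 and Lgals1 and the summed CPM of B-cell, myeloid and dendritic cell markers in NKG2D+ (left, red) and NKG2D- (right, blue) libraries, with mean ± SD of 3. Replicate 1 (circle) is the highest NKG2D+ library in all 5 panels, at 293 CPM for Lgals3, 483 CPM for Lgals1 and 433, 18.4 and 20.1 CPM for the B-cell, myeloid and dendritic sums.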

How the data were processed

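RNA was sequenced from 6 libraries of sorted lymph node CD8 T cells, 3 NKG2D+ and 3 NKG2D-, made with a TruSeq kit per the labels' protocols. The authors deposited raw counts of reads for each gene symbol, a file for each library, without normalisation. CASAVA 1.8.2, TopHat2 2.0.4 and build mm9 are named in the submitters' processing notes, and the sources used here name no counting program or strand setting. The 5 summary rows that name no gene were left out. They hold reads outside genes (14.0% to 15.9% of all counted reads), reads over several genes (0.715% to 0.836%) and reads aligned to several places (19.7% to 26.2%), so a gene with near copies is counted from its uniquely placed reads alone.

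Counts were tested in R 4.3.3 with edgeR 4.0.16 (TMM, robust quasi-likelihood fit in legacy mode, population as the only term), with genes kept by filterByExpr (minimum count 10, minimum total 15) and Benjamini-Hochberg adjustment over 12951 genes at a threshold of 0.05. A standard error is the log2 fold change divided by the square root of F. CPM uses TMM-scaled library sizes. Alternatives were RLE factors, library totals, no filter, DESeq2 1.42.0, limma-voom (limma 3.58.1), a replicate block, each library or replicate number left out, and the newer quasi-likelihood fit, the last added after seeing the data.

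Because the series description names 3 mice, libraries with the same number were treated as pairs from 1 mouse. Deviations of log2 CPM from the population means correlated across genes with r = 0.275, 0.221 and 0.434 in the same-numbered pairs, over 11970 genes, which are not independent replicates. Pairs with different numbers gave r from -0.238 to 0.0256. Such deviations sum to 0 over the 3 libraries of a population, so these values of r depend on each other. No library was a copy of another (chi-square per degree of freedom 40.7 to 235 within a population). The members and lists were chosen with earlier results of these data known. Named genes are the 6 members, up to 4 called genes per direction of each list (otherwise the gene with the smallest p), and the 3 genes nearest in profile to each called galectin gene and to the member with the highest mean CPM, among genes of at least 5 CPM. Coordinates of promoters are on GRCm38.p6, not the build of the counts. From the marker lists, 1 gene was left out of all counts and sums and is not reported here.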

Additional observations from a re-analysis of the deposited data

How the results depend on the processing

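The direction of Lgals1, Lgals3, Lgals3bp, Lgals4 and Lgals8 was the same under all 16 alternatives. The calls of Lgals1 and Lgals3 moved with the test and with single libraries, those of Lgals3bp and Lgals4 with DESeq2 only, and that of Lgals8 under none. Without the filter on low counts Lgals3 stood at 4.70 (adjusted p = 0.074), and 0 galectin genes, 0 galectin-binding genes and 1 glycan enzyme gene were called higher. By limma-voom Lgals3 stood at 4.55 (adjusted p = 0.0683), with 0 galectin genes and 0 galectin-binding genes higher. DESeq2 called 4 galectin genes higher, among them Lgals1 (1.18), Lgals3bp (0.23) and Lgals4 (0.73), with 7 galectin-binding and 4 glycan enzyme genes higher. With library totals only, 1 glycan enzyme gene was called higher, and with the replicate block 0 galectin-binding genes lower. The block changed the call of no galectin gene (Lgals3 log2 fold change 4.50, adjusted p = 0.0417). Leaving out a library or a replicate number gave a log2 fold change of 0.82 to 1.38 for Lgals1, 3.93 to 5.11 for Lgals3 and -0.0066 to 0.043 for Lgals9. The calls then ran from 0 to 2 galectin genes higher, 0 to 6 galectin-binding genes higher and 0 to 1 lower, and 0 to 4 glycan enzyme genes higher and 0 to 1 lower. Over all genes edgeR called 261, 68 with the block, DESeq2 1433 and limma-voom 83. Totals by edgeR were 234 without the filter and 321 with library totals only. They were 543 and 1312 without NKG2D+ library 1 or 2, and 229 and 354 without replicate 1 or 2. Without NKG2D+ library 3, any NKG2D- library or replicate 3 they were 0 to 21. The cause of these changes was not tested. Mouse and lane tag coincide in the same-numbered libraries and cannot be told apart. The lowest counts of the 6 genes were those of Lgals4, 92 to 279 per library.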
